A study of Homo sapiens with 6 samples.

Results

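The checkpoint built on the kinases ATR and CHK1 was followed through 10 of its genes, ATR, ATRIP, RAD17, TOPBP1, ETAA1, CLSPN, TIMELESS, TIPIN, CHEK1 (the gene of CHK1) and WEE1, out of 19671 protein-coding genes of known strand. The genes were picked by their place in the pathway. ATAC-seq uses a transposase that inserts sequencing adapters where DNA is accessible, so that a peak marks a stretch of open chromatin. A peak was given to a gene when its midpoint lay in the RefSeq gene body on GRCh38 or within 1 kb of it. It was called a start peak when the midpoint lay within 1 kb of the gene start, and a body peak otherwise. In DMSO replicates 1, 2 and 3 this rule found 18 of 65865, 23 of 77194 and 19 of 64511 peaks. In APH replicates 1, 2 and 3 it found 21 of 79807, 22 of 84510 and 20 of 70121 peaks.

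All 6 samples were RKO cells, an established colon cancer cell line obtained from ATCC, at passage 3 and grown at 5% O2. In 3 samples the cells were treated with 0.2 µM aphidicolin (APH), an inhibitor of the replicative DNA polymerases, for 16 h, and the other 3 received its solvent DMSO. The study mainly asked whether mild replication stress changes the timing of DNA replication differently between cell types. These samples addressed its effect on chromatin accessibility. Cells were frozen before the assay, and each sample is a bulk of growing cells of 1 line, in which fewer cells with an open site and less signal per cell cannot be told apart.

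When DNA polymerases slow while unwinding goes on, single-stranded DNA covered by RPA builds up at replication forks. ATR, held there by ATRIP, is switched on by TOPBP1 or ETAA1, and passes the signal to CHK1 with the help of Claspin (CLSPN), TIMELESS and TIPIN. CHK1 and WEE1 then restrain the cyclin-dependent kinases, so that late origins do not fire and cells do not divide with unfinished DNA.

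Values are the deposited signal, the mean coverage over a peak, which shows no sign of multiplication by a library size factor. The depth of the libraries is unknown. The median start value over the 10812 genes (55.0%) with a start peak in every sample was 147, 156 and 161 in the DMSO samples and 122, 129 and 134 in the APH samples. The groups did not overlap (155 ± 7.12 against 128 ± 6.19, SD, n = 3, two-sided exact permutation test p = 0.1, the smallest that 3 against 3 samples allow). The median log2 difference of these genes was -0.27, and the difference of each named gene is therefore also given after centring every sample on its median over these genes, which removes this shift. Over all regions shared by the samples the median difference was -0.06, so that centred values depend on what is centred on. Centring means on the gene starts unless another set is named. Whether the shift comes from the depth of the libraries was not tested. Of 8 markers of colon epithelium, EPCAM, KRT8, CDX2 and LGR5 had a start peak in all 6 samples, KRT18 in 5 and KRT20 in 2, while CDH1 and VIL1 had none in any sample. None of 3 leukocyte markers and neither CDH5 of endothelium nor DCN of fibroblasts had a start peak in any sample, whereas the fibroblast genes COL1A1 and COL1A2 had one in all 6 samples. Their part in the results was not tested.

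The sequence before a listed start is shown for 6 of the genes, as the DNA at their start peaks. As deposited, RAD17 and CLSPN had the largest differences between conditions and TOPBP1 and ETAA1 the smallest, while after centring TOPBP1 came after RAD17 and CLSPN was the fifth, and ATR and CHEK1 give the pathway its name. Each run is the 250 bases before the first listed start, 5′ to 3′ on the strand of the gene, from RefSeq on GRCh38.p14. This start is the edge of the RefSeq gene, which the peaks were measured from, for CLSPN, TOPBP1, ETAA1 and ATR, but lies 525 bp inside it for RAD17 and 1093 bp inside it for CHEK1. Capitals mark matches, on either strand, to the motifs searched. The positions are chr5:69369568-69369817 (plus strand) for RAD17, chr1:35769979-35770228 (minus) for CLSPN, chr3:133661942-133662191 (minus) for TOPBP1, chr2:67397083-67397332 (plus) for ETAA1, chr3:142578734-142578983 (minus) for ATR and chr11:125625979-125626228 (plus) for CHEK1.
RAD17: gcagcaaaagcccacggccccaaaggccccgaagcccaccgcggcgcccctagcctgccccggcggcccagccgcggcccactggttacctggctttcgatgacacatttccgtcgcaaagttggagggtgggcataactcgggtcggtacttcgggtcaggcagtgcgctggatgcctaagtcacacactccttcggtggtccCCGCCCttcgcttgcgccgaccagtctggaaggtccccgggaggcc
CLSPN: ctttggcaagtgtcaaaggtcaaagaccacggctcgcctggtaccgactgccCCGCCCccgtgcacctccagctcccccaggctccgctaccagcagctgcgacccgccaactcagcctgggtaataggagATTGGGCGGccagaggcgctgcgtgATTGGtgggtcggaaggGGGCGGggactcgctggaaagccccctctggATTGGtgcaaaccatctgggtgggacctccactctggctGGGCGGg
TOPBP1: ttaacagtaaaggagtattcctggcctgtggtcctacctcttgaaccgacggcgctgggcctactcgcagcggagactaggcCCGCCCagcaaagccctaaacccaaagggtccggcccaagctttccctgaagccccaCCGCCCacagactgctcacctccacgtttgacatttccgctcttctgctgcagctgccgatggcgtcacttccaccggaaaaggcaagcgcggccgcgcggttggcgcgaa
ETAA1: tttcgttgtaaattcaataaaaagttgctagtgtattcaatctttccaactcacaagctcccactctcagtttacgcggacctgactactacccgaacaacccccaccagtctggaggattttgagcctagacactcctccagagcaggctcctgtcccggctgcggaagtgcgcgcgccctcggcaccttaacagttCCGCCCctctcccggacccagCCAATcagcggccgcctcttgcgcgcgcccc
ATR: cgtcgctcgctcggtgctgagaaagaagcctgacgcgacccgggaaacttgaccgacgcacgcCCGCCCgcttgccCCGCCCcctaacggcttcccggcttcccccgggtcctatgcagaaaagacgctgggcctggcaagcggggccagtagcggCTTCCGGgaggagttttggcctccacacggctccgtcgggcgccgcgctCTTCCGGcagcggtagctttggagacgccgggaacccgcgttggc
CHEK1: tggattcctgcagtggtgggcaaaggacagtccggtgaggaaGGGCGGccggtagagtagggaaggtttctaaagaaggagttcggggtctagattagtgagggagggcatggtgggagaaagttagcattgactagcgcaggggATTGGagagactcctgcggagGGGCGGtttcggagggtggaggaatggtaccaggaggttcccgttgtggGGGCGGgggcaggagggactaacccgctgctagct

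Of the 10 genes, 9 were matched to a promoter sequence, and WEE1 was not. The motifs were GGGCGG for SP1, CCAAT for NF-Y, CCGGAAG for ETS factors, TTTCCCGC or TTTGGCGC for E2F, GCATGCGC for NRF1 and TATAAA for the TATA box, each on both strands. GGGCGG lay in 9 of the 9 sequences, against 56.0% of 15842 promoters and 69.5% of the 9010 promoters of genes with a start peak in every sample. CCAAT lay in 6, those of ATRIP, CHEK1, CLSPN, TIMELESS, TIPIN and ETAA1, against 34.5% of all promoters and 36.3% of those with a start peak. In CLSPN a match to CCAAT and a match to GGGCGG share letters. CCGGAAG lay in ATR alone, against 11.8% of all and 17.7% of those with a start peak. The letters searched for E2F, NRF1 and the TATA box were in 0 of the 9 windows, against 2.59%, 3.70% and 9.23% of all promoters and 3.41%, 5.35% and 4.96% of those with a start peak. The share of G and C ran from 45.2% in TIMELESS to 73.6% in ATRIP, with a median of 66.0% against 62.4% over all promoters and 65.2% over those with a start peak. These matches describe letters and not binding.

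All 10 checkpoint genes had a start peak in each of the 6 samples. The start value of every one of them was on average lower in APH as deposited, as it was for 92.9% of all genes tested, although CHEK1, TIMELESS, TOPBP1 and ETAA1 turned higher after centring on the gene starts. The median log2 difference was -0.33 against -0.27 over all genes tested. By an unadjusted p below 0.05 (limma), 7 of 10 were lower and 0 higher, where 40.4% of all genes tested were lower. In 6 of 10 the samples of the 2 conditions did not overlap, where 42.2% of all genes tested had lower, non-overlapping values. One member, RAD17, passed a Benjamini-Hochberg adjusted p of 0.05, where 2.41% of all genes tested passed as lower and 0 genes as higher. After centring on the gene starts, the median of the 10 genes was -0.06, 6 of 10 were negative, against 48.8% of all genes tested, RAD17 was the 1 gene with an unadjusted p below 0.05, and 0 passed the adjusted p. Centred instead on the regions shared by all samples, the start regions hardly moved, with a median of -0.30, and ATR (-0.31), CLSPN (-0.37), TIMELESS (-0.23), CHEK1 (-0.09), ETAA1 (-0.08) and RAD17 (-0.56) stayed negative, while TOPBP1 was at 0.01. Over all genes, the unadjusted calls were 51 higher and 4365 lower as deposited, 569 higher and 286 lower after centring, and 517 higher and 407 lower after quantile normalization. As deposited but without 1 sample, the lower calls ran from 2289 (APH replicate 1) to 4627 (APH replicate 3). The higher calls then ran from 20 (APH replicate 2) to 95 (DMSO replicate 2).

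**Figure D1:**
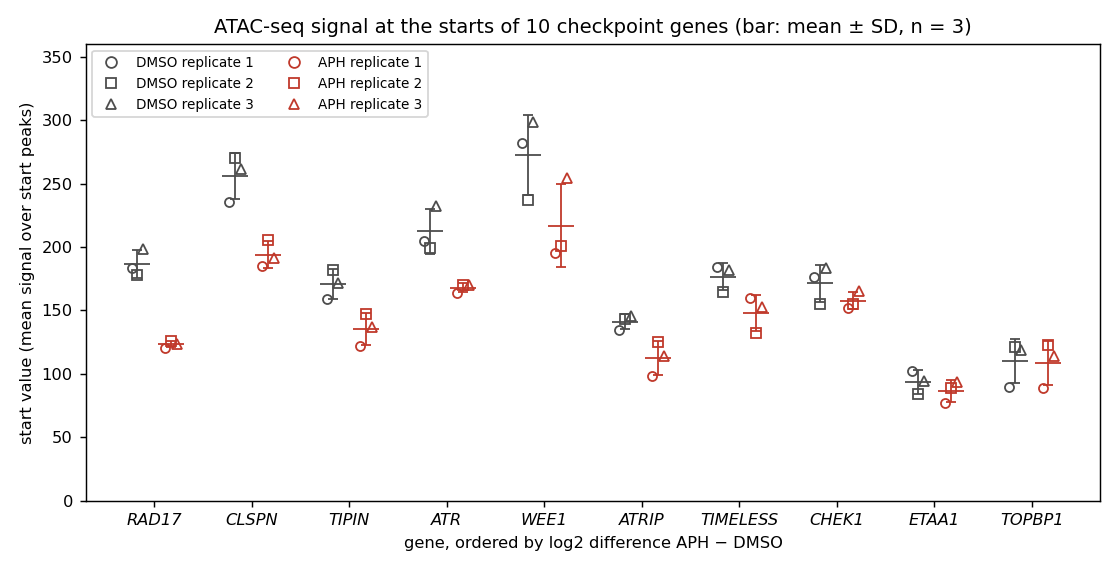
Start value (mean signal over the start peaks, y axis) of the 10 checkpoint genes in each of the 3 DMSO (grey) and 3 APH (red) samples, with the mean and SD (n = 3) as bars and the genes ordered along the x axis by the log2 difference. The 3 APH samples of RAD17 sit at 121 to 126, below its DMSO samples at 178 to 199, while TOPBP1 overlaps.

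In DMSO the 10 start values spanned a wide range, and a value is a mean per bin of the peak, so that genes can be set side by side. WEE1 and CLSPN were the highest, at 273 ± 31.7 and 256 ± 18.1 (SD, n = 3), and their samples overlapped. ATR followed at 212 ± 17.5, below every CLSPN sample. RAD17, TIMELESS, CHEK1 and TIPIN came next, with means from 187 down to 171 and overlapping samples. ATRIP at 141 ± 5.99 lay below all of these. TOPBP1 and ETAA1 were the lowest at 110 ± 17.4 and 93.6 ± 9.32, and overlapped each other. The start of WEE1 was higher than that of 84.9% of the genes tested, and that of ETAA1 higher than that of 19.1%. Another gene started within 1 kb of the start of 6 of the 10 genes, against 26.6% of coding genes, and the start of ATR, TIMELESS, WEE1 and ETAA1 stood alone. In APH the order of levels was the same except in its middle, where RAD17 was the seventh and no longer the fourth.

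ATR, the kinase that senses stalled forks, had start values of 205, 199.6 and 232 in DMSO and of 164, 169.9 and 170.0 in APH. Every APH sample lay below every DMSO sample (212 ± 17.5 against 168 ± 3.55, SD, n = 3). The log2 difference was -0.33 (SE 0.11) with an adjusted p of 0.0620 by limma, and -0.06 after centring. The start of ATR, on the minus strand of chromosome 3, shares its peak region (chr3:142578355-142579173) with the start of no other gene. Over its 129 kb, the longest of the 10 genes, a single body region was found 82.3 kb from the start, in APH replicate 2 only and at a value of 24.4.

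ATRIP, the partner that brings ATR to RPA-coated DNA, had start values of 134, 143 and 146 in DMSO and of 98.4, 125 and 114 in APH. The groups did not overlap (141 ± 5.99 against 113 ± 13.5), with a log2 difference of -0.33 (SE 0.13, limma adjusted p = 0.0859) and of -0.06 after centring. Its start region (chr3:48446056-48447230) also holds the start of CCDC51, so the signal cannot be given to either gene alone. Within ATRIP, 19.0 kb from its start, lies the start of TREX1, a DNA exonuclease gene, and a region there (chr3:48465432-48466017) had 202.5, 278 and 240.3 in DMSO and 248, 304 and 212 in APH. These values overlapped, at a log2 difference of 0.08 (limma adjusted p = 0.884), which turned negative when DMSO replicate 1 (-0.04) or APH replicate 2 (-0.06) was left out and with the median peak width as a covariate (-0.18). A weak region 10.7 kb into ATRIP had a peak in DMSO replicate 2 (27.2), APH replicate 2 (24.1) and APH replicate 3 (19.0).

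RAD17, which loads the ring-shaped RAD9A-RAD1-HUS1 clamp onto DNA next to RPA, differed most. Its start values were 184, 178 and 199 in DMSO and 121, 126 and 124 in APH. The APH samples lay close together and far below the lowest DMSO sample (187 ± 10.8 against 123 ± 2.55, SD, n = 3), at 66.1% of the DMSO mean. RAD17 fell by 0.59 on the log2 scale (SE 0.11, limma adjusted p = 0.0487), and 1.50% of the genes tested fell more. After centring the difference was -0.32, with an adjusted p of 0.449. The call needed several libraries, as without DMSO replicate 1, 2 or 3 the adjusted p was 0.0650, 0.0650 and 0.122, and without APH replicate 1 or 2 it was 0.21 and 0.114, while without APH replicate 3 it was 0.0275. The log2 difference stayed between -0.63 and -0.55 in these fits, and in each fit that lost the call at most 1 gene of all those tested passed, against 261 with all samples. Over 17 alternatives the adjusted p ran from 0.00595 to 0.455 and was below 0.05 in 7, and the difference stayed negative in all 17. The start region (chr5:69369281-69370277) also holds the starts of TAF9, a subunit of transcription factor complexes, and of AK6, so the lower signal cannot be given to RAD17 alone.

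The other shared region given to RAD17 lies 45.8 kb from the start, just past the end of the gene and at the start of its neighbour MARVELD2 (chr5:69414804-69415471), and was assigned through the 1 kb margin. It had 71.1, 78.4 and 87.1 in DMSO and 84.9, 77.2 and 82.2 in APH. Here the groups overlapped, with a log2 difference of 0.05 (limma adjusted p = 0.941) that turned to -0.02 without DMSO replicate 1. The start value divided by the value of this region in the same sample, a measure chosen after the data were seen and free of the scale of the library, was 2.58, 2.27 and 2.28 in DMSO and 1.42, 1.63 and 1.51 in APH. The ratios did not overlap (2.38 ± 0.18 against 1.52 ± 0.104, exact permutation test p = 0.1, adjusted p = 0.3 over 6 genes). With 3 samples a group no smaller p could be reached. A weak region at 38.4 kb had a peak in DMSO replicate 2 (21.3) and APH replicate 1 (22.6) only.

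TOPBP1, the protein that activates ATR at the clamp, had start values of 90.0, 121 and 119 in DMSO and of 89.0, 122 and 114 in APH. The groups overlapped almost completely (110 ± 17.4 against 108 ± 17.4), with a log2 difference of -0.02 (SE 0.16, limma adjusted p = 0.925) that became 0.25 after centring and also turned positive without DMSO replicate 2 (0.06), DMSO replicate 3 (0.04) or APH replicate 1 (0.11). It was -0.16 with the median peak width as a covariate and -0.12 with value times length. Of all genes tested, 91.2% fell more than TOPBP1 before centring. Its start region (chr3:133661484-133662670) also holds the start of TF, the transferrin gene. Inside TOPBP1, a region 17.0 kb from the start had peaks in DMSO replicates 2 and 3 (21.5 and 21.9) and in APH replicates 1, 2 and 3 (21.5, 23.7 and 23.8). A region at 52.2 kb had 22.6, 24.9 and 37.6 in DMSO and 33.3, 38.5 and 23.2 in APH, at a log2 difference of 0.16 (limma adjusted p = 0.835). This difference hung on single libraries, at 0.018 without DMSO replicate 1, 0.084 without DMSO replicate 2, 0.37 without DMSO replicate 3, 0.0070 without APH replicate 2 and 0.36 without APH replicate 3. The lowest peak values of the lists lay between 15.1 and 15.5.

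ETAA1, which binds RPA and activates ATR independently of TOPBP1, had start values of 103, 84.0 and 94.2 in DMSO and of 77.2, 89.0 and 93.4 in APH. The groups overlapped (93.6 ± 9.32 against 86.5 ± 8.38), with a log2 difference of -0.11 (SE 0.14, limma adjusted p = 0.521) that became 0.16 after centring. It ran from -0.19 without DMSO replicate 2 and -0.17 without APH replicate 3 to -0.04 without DMSO replicate 1 and -0.03 without APH replicate 1, and was 0.02 with the median peak width as a covariate and -0.43 with value times length (limma adjusted p = 0.0816). It was the shortest of the 10 genes, at 14.8 kb, and had no body peak in any sample. Both activators of ATR had low starts with overlapping groups, and the groups of CHEK1 and WEE1 overlapped as well. Of the 10812 genes tested, 4559 had lower and 75 higher values without overlap, and the rest overlapped. The difference between the activators and the other genes was not tested.

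**Figure D2:**
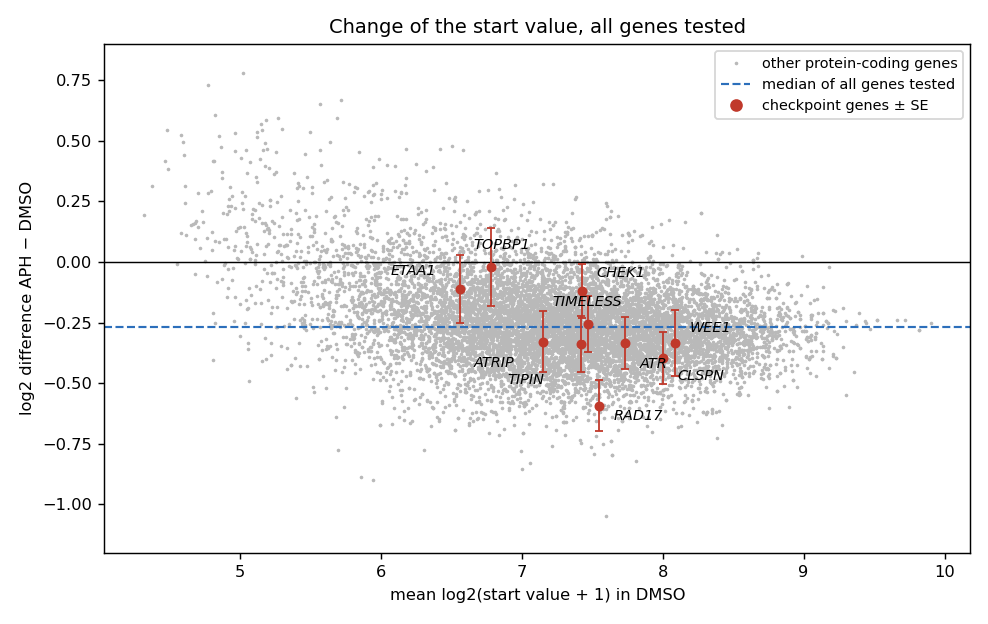
Log2 difference of the start value, APH minus DMSO (y axis), against the mean log2 start value in DMSO (x axis) for the genes tested (grey), with the 10 checkpoint genes in red with their SE. The dashed line is the median of all genes tested, -0.27, and RAD17 lies farthest below it among the 10, at -0.59, with TOPBP1 farthest above at -0.02.

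CLSPN, the gene of Claspin, the adaptor through which ATR reaches CHK1, had start values of 235, 269.9 and 262 in DMSO and of 185, 206 and 191 in APH. No APH sample reached the DMSO samples (256 ± 18.1 against 194 ± 10.6, SD, n = 3). The log2 difference was -0.40 (SE 0.11) with a limma adjusted p of 0.0519, and -0.12 after centring, and 18.6% of the genes tested fell more. The start region (chr1:35769247-35770335) also holds the start of CLSPN-DT, a divergent transcript. A region 42.8 kb into the gene (chr1:35726856-35727438) had 66.7, 77.7 and 46.2 in DMSO and 68.7, 81.8 and 53.7 in APH, with a log2 difference of 0.11 (limma adjusted p = 0.891) that turned to -0.10 without DMSO replicate 3, to -0.03 without APH replicate 2 and to -0.15 with peak width in the fit. The ratio of start to body region overlapped between groups at 3.53, 3.48 and 5.67 in DMSO and 2.70, 2.52 and 3.56 in APH (exact permutation test p = 0.3, adjusted p = 0.45 over 6 genes).

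TIMELESS, which travels with the fork and couples unwinding to synthesis, had start values of 184, 164 and 182 in DMSO and of 159, 132 and 152 in APH. All APH samples lay below the DMSO samples (177 ± 10.9 against 148 ± 14.2). The log2 difference was -0.26 (SE 0.12, limma adjusted p = 0.119), close to the median gene, and became 0.02 after centring and -0.16 with the median peak width as a covariate. A weak region 11.6 kb from the start had peaks in replicates 1 and 2 of both conditions, at 29.4 and 32.4 in DMSO and at 26.2 and 25.2 in APH.

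TIPIN, the partner of TIMELESS, had start values of 159, 182 and 171 in DMSO and of 122, 147 and 137 in APH, again without overlap (171 ± 11.6 against 135 ± 12.6). The log2 difference was -0.34 (SE 0.12, limma adjusted p = 0.0714) and -0.07 after centring. Its start value joins 2 regions. The one on the start (chr15:66386476-66387200) is shared with MAP2K1, the gene of a kinase of the ERK pathway, and had 196, 235 and 200.5 in DMSO and 153, 168 and 162 in APH. The other, 0.925 kb before the start, had 119, 124 and 133 in DMSO and 95.3, 121 and 109 in APH, with overlap. TIPIN has another listed start 30.0 kb inside the RefSeq gene, shared with no other gene, and the region there (chr15:66356384-66357060) counted as a body region by the rule. It had 185, 192 and 201 in DMSO and 154, 176 and 169 in APH, without overlap (193 ± 7.93 against 166 ± 11.5), at a log2 difference of -0.21 (SE 0.13, limma adjusted p = 0.519) that was -0.02 after quantile normalization.

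CHEK1, which encodes the kinase CHK1 that carries the signal away from the fork, had start values of 176, 155 and 183 in DMSO and of 152, 155 and 165 in APH. The groups overlapped (172 ± 14.5 against 157.5 ± 6.75), with a log2 difference of -0.12 (SE 0.11, limma adjusted p = 0.393) that became 0.15 after centring, -0.02 with the median peak width as a covariate, -0.19 without DMSO replicate 2 and -0.07 without DMSO replicate 3. Of the genes tested, 81.4% fell more. Its start region (chr11:125625352-125626810) was the widest of the 10 genes, at 1459 bp, and its centre lay 0.944 kb inside the edge of the RefSeq gene, over 3 of its listed starts. It also holds the start of LOC118567325, a long non-coding RNA gene, so the signal cannot be given to CHEK1 alone. The only body peak, 24.6 kb from the start at the small nuclear RNA pseudogene RNU2-35P, was in APH replicate 3 (20.3).

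WEE1, the kinase that puts an inhibitory phosphate on CDK1, had start values of 282, 237 and 299 in DMSO and of 195, 201 and 255 in APH. APH replicate 3 overlapped the DMSO samples (273 ± 31.7 against 217 ± 32.8). The log2 difference was -0.33 (SE 0.14, limma adjusted p = 0.0974), -0.06 after centring and -0.15 with the median peak width as a covariate. A region 1.80 kb inside the gene (chr11:9575298-9575636) had 132, 165 and 149.6 in DMSO and 139.7, 149.5 and 110.1 in APH, with overlap, at a log2 difference of -0.17 (SE 0.15, limma adjusted p = 0.70) that was 0.01 after quantile normalization, -0.36 with the median peak width as a covariate, -0.25 without DMSO replicate 1 or APH replicate 2, -0.09 without DMSO replicate 2 and -0.04 without APH replicate 3. A weak region at 11.2 kb had a peak in DMSO replicate 3 only (25.6).

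**Figure D3:**
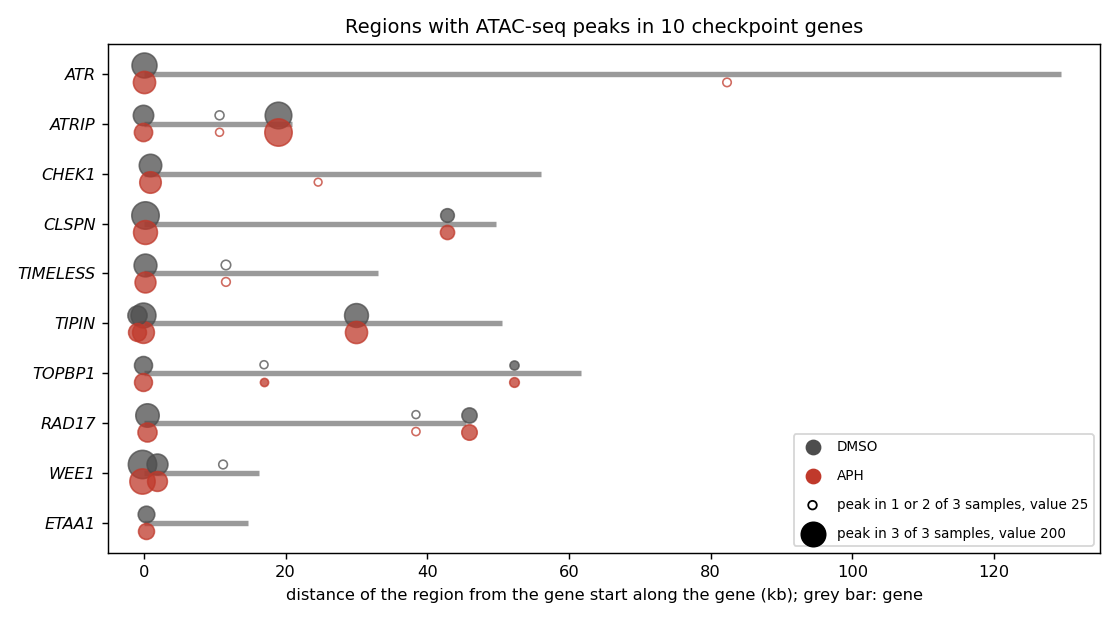
Regions with peaks along the 10 checkpoint genes, with the distance from the gene start in kb on the x axis, each gene as a grey bar and the mean value in DMSO (grey) and APH (red) as the size of the circle. Open circles are regions with a peak in 1 or 2 of the 3 samples of a condition, which were the weak body regions with values between 19.0 and 32.4.

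The peaks of the 10 genes formed 24 regions, 11 at starts and 13 in gene bodies. All 11 start regions and 6 of the 13 body regions had a peak in every sample. Over the whole genome 50150 of 102784 regions did. Of the shared regions, meaning those found in all samples, 6 at member starts and 0 in member bodies had lower values with APH (limma, unadjusted p below 0.05), where 10.1% of 50150 did. Of the 10508 shared regions at the starts of coding genes, 32.2% did. Values without overlap and lower in APH were found in 6 start regions and in 1 body region, that of the inner TIPIN start, where 14.4% of shared regions and 40.0% of those at coding gene starts had them. The median log2 difference was -0.33 over the member start regions, 0.06 over the member body regions and -0.06 over all shared regions. The value over all shared regions turned positive without DMSO replicate 2 (0.035) or APH replicate 3 (0.014). It was -0.12 without APH replicate 2 and -0.21 with the median peak width as a covariate. No region of the genome passed the adjusted p in the main fit. In that fit 5062 were lower and 1235 higher at an unadjusted p below 0.05. Centring on the sample median made this 4925 lower and 3091 higher, and quantile normalization 2307 lower and 2963 higher. The counts also hung on single libraries. They were 4729 lower and 3828 higher without DMSO replicate 2, 5031 and 2863 without APH replicate 3, and 2068 and 516 without APH replicate 1. The RAD17 start region had a limma adjusted p of 0.290 in the fit of all samples as deposited.

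Set against the shared region given to the same gene, the start value was on average lower in APH for all 6 genes with such a region, as it was for 80.0% of 5851 genes set against the mean of their own such regions. The groups did not overlap for 2 of 6, RAD17 and TIPIN, where 14.5% of these genes had lower ratios without overlap. For TIPIN the ratio to its inner start was 0.858, 0.950 and 0.851 in DMSO and 0.792, 0.833 and 0.809 in APH (exact permutation test p = 0.1, adjusted p = 0.3 over 6 genes). For ATRIP the ratio to the TREX1 start was 0.664, 0.514 and 0.607 in DMSO and 0.397, 0.413 and 0.539 in APH, with overlap (exact permutation test p = 0.2, adjusted p = 0.4). TOPBP1 and WEE1 had wide overlap (exact permutation test p = 0.8 for each), and the mean difference of TOPBP1 turned positive without DMSO replicate 2 or APH replicate 1. The mean difference of WEE1 was -0.17 and ran from -0.49 without APH replicate 3 to -0.0037 without APH replicate 2, that of CLSPN went from -1.30 to -0.58 without DMSO replicate 3, and that of TIPIN from -0.075 to -0.043 without DMSO replicate 2.

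**Figure D4:**
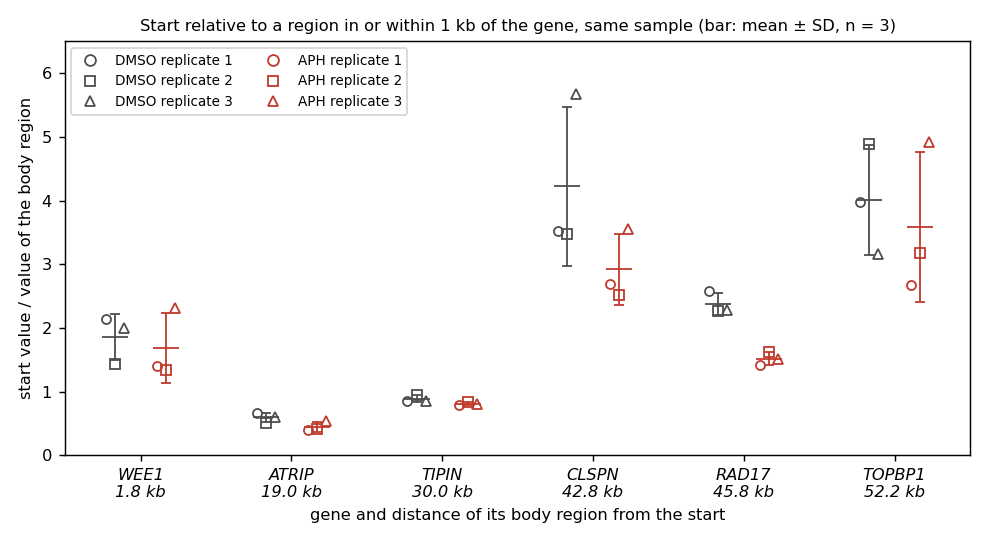
Start value divided by the value of a body region of the same gene in the same sample (y axis) for the 6 genes with such a region, in the gene or within 1 kb of it, in every sample, with the distance of that region under each gene name and bars for the mean and SD (n = 3). RAD17 had ratios of 2.27 to 2.58 in DMSO and of 1.42 to 1.63 in APH, and CLSPN and TOPBP1 spread widely within a condition.

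The number of peaks in these genes differed little. Start peaks numbered 11, 13 and 11 in DMSO and 12, 12 and 11 in APH (11.7 ± 1.15 against 11.7 ± 0.577). Body peaks numbered 7, 10 and 8 in DMSO and 9, 10 and 9 in APH (8.33 ± 1.53 against 9.33 ± 0.577), with overlap. In the fit of body peak numbers over 10657 genes, 0 of the 6 member genes tested passed the adjusted p and 0 an unadjusted p below 0.05 (limma). Of all genes in that fit 0.854% passed, 76 higher and 15 lower, and 88 of these 91 genes had the same number in every sample of each condition. At an unadjusted p below 0.05 this fit had 476 genes higher and 40 lower, a split that became 207 and 192 with an equal number of peaks taken from each sample, where 56 higher and 51 lower passed the adjusted p (limma). Without 1 sample the unadjusted split ran from 354 higher and 107 lower (APH replicate 2) to 899 and 50 (DMSO replicate 2). The 10 genes had a median of 2.01 body peaks per 100 kb against 2.61 over genes with a start peak in every sample, and they were longer, with a median of 47.6 kb against 29.6 kb.

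A list of 23 other genes of the pathway was read in the same way, and 22 had a start peak in all samples, the exception being RPA3 with one in 3 samples. All 22 were on average lower in APH as deposited, against 92.9% of all genes tested, and 15 were after centring, against 48.8%. They had a median log2 difference of -0.33 and a range from -0.59 to -0.10. At an unadjusted p below 0.05, 13 of 22 were lower and 0 higher, against the 40.4% of all genes tested, and 12 had values without overlap, against 42.2%. After centring the median was -0.06, and 1 of 22 was lower and 0 higher at an unadjusted p below 0.05 (limma). Of the 10812 genes tested, 286 were lower and 569 higher in that fit. At the adjusted p 0 of the 22 passed, and 0 of all genes tested.

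CDK1, the kinase that drives mitosis and is held back by WEE1, was the only gene of the list to pass the adjusted p. Of all genes tested 2.41% passed as lower. Its start values were 207, 226 and 225 in DMSO and 153, 165 and 138 in APH, without overlap. CDK1 fell by 0.53 on the log2 scale (SE 0.11, limma adjusted p = 0.0487), and the difference was -0.26 after centring, with an adjusted p of 0.613. The call needed most libraries, since the limma adjusted p was 0.0650, 0.0650 and 0.122 without DMSO replicate 1, 2 or 3, 0.21 and 0.114 without APH replicate 1 or 2, and 0.0354 without APH replicate 3. The log2 difference lay between -0.59 and -0.46 in these fits. CDK2, its counterpart in S phase, had 139, 119 and 125 in DMSO and 80.4, 69.5 and 109.9 in APH, at a log2 difference of -0.58 (SE 0.17, limma adjusted p = 0.0541), of -0.31 after centring, of -0.39 with the median peak width as a covariate and of -0.31 with value times length. RAD1, a subunit of the clamp that RAD17 loads, had 161, 212 and 205 in DMSO and 129.7, 154 and 138 in APH, at -0.45 (SE 0.13, limma adjusted p = 0.0554) and -0.17 after centring. The other subunits of that clamp, RAD9A and HUS1, were at the median gene, at -0.26 each and 0.01 each after centring. WDHD1, a scaffold of the replication fork, had 171, 187 and 189 in DMSO and 139, 126 and 149.5 in APH, at -0.40 (SE 0.11, limma adjusted p = 0.0535) and -0.12 after centring. CDK2, RAD1 and WDHD1 had no overlap between the groups, which the rule for naming them required. Lower values without overlap were found in 42.2% of all genes tested.

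The partners of RAD17 in the clamp loader, RFC2, RFC3, RFC4 and RFC5, had log2 differences from -0.40 to -0.21 at limma adjusted p from 0.0691 to 0.154, and their groups did not overlap, as for 42.2% of all genes tested. After centring RFC2 turned positive (0.06), and RFC3, RFC4 and RFC5 were at -0.10, -0.08 and -0.13. The phosphatases CDC25A, CDC25B and CDC25C, which CHK1 holds back, had -0.29, -0.33 and -0.34, and the groups overlapped for each, with -0.02, -0.05 and -0.07 after centring. ATM and CHEK2, the kinases of the parallel pathway for broken DNA, had -0.39 and -0.26 without overlap, at limma adjusted p of 0.0635 and 0.114, and were at -0.12 and 0.01 after centring. 

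**Figure D5:**
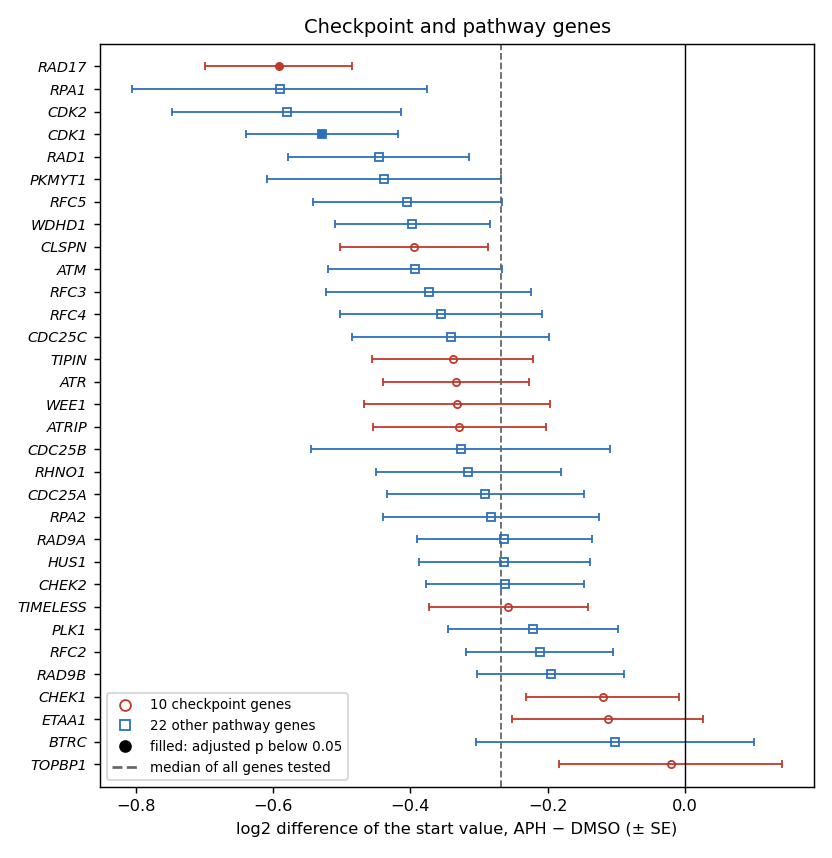
Log2 difference of the start value with its SE (x axis) for the 10 checkpoint genes (red circles) and 22 other pathway genes (blue squares), filled where the limma adjusted p is below 0.05, with the median of all genes tested as a dashed line. Only RAD17 and CDK1 are filled, and every gene lies below 0 as deposited, where 4 checkpoint genes and 7 pathway genes lie above 0 after centring.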

How the data were processed

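ATAC-seq peak lists of 6 RKO samples, 3 DMSO and 3 APH, were processed. The authors aligned reads with BWA 0.7.12 (mem) to hg38 and called peaks per sample with MACS2 2.1.0 (versions and build from the submitters' processing notes), after removing duplicates. They deposited 1 signal value per peak, which averages coverage across its 32-nt bins after each alignment had been lengthened to 200 bp. The methods name no shift to the transposase cutting site. For values below 1000, the deposited signal times the number of bins came out whole (to the precision of the decimals given) for 99.995% to 100.0% of peaks. It therefore shows no sign of multiplication by a library size factor. Whole values cannot show whether libraries were equalised by removing reads. Depth is unknown, and no counting interval or floor can be given.

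Gene bodies, starts (the 5′ edge of the RefSeq gene) and promoters came from RefSeq GRCh38.p14, and strand from its promoter table for 15842 genes and from GENCODE by symbol for 3829. The GENCODE annotation was on another build, and only the strand was taken from it. The reference genome of another build was not used. The start value is the mean of the start peaks weighted by length. Regions join peaks of any sample that share 1 bp or more. Log2(value + 1), or log2(number + 1) for genes with a mean of at least 1 body peak, was compared with limma with an intensity trend over all genes or regions (Benjamini-Hochberg, 0.05). Single values were compared with two-sided exact permutation tests. Fold differences are on this scale, which understates those of low values. The paper speaks of 3 independent experiments in its results. Samples with the same replicate number were not treated as pairs in the main fits, and whether they share a batch was not tested. At most 0.0031% of the peaks of any 2 samples had the same position and value, so no 2 samples were taken as copies.

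The 10 members are all named. Of the member body regions, the 3 of smallest unadjusted p in each direction were to be given in full, with any past the adjusted p. Of the pathway list (RPA1, RPA2, RPA3, RAD9A, RAD9B, RAD1, HUS1, RHNO1, RFC2, RFC3, RFC4, RFC5, ATM, CHEK2, CDC25A, CDC25B, CDC25C, PKMYT1, CDK1, CDK2, PLK1, BTRC, WDHD1) those without overlap at an unadjusted p below 0.05 were, at most 4 a direction. RAD9A, HUS1, RFC2 to RFC5, the CDC25 genes, ATM and CHEK2 were named after their values were seen. The members and lists were chosen with earlier results of these data known. Alternatives covered scaling, pseudocount, window, peak and sample filters, merging, the trend, a replicate block, median peak width as a covariate and each sample left out. The start to body ratio, value times length and any listed start were added after the data were seen. The main limma fits of start values, body peak numbers and shared regions were each first tested on simulated data with known changes. Python 3.11.15 (numpy 2.4.6, pandas 2.3.3, scipy 1.17.1, matplotlib 3.10.9) and R 4.3.3 (limma 3.58.1) were used.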

Additional observations from a re-analysis of the deposited data

How the results depend on the processing

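Of the genes tested for their start value, 261 passed as reported, with 1 member, RAD17. Centring, quantile normalization, no intensity trend, a window of 500 bp and the highest start peak left 0 genes and 0 members. With no filter on missing peaks, those being set to the lowest value (11831 genes), 9 genes and 0 members passed, with peaks at or above the median value 832 and 2, with the median peak width as a covariate 3489 and 3, with value times length 2982 and 5, and with any listed start 436 genes. Leaving out 1 sample gave 0 to 2074 genes and 0 to 2 members, the highest without APH replicate 3 and at most 1 gene without any other. At 500 bp CHEK1 and RAD17 had no value, and the cause of these moves was not tested.

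With the replicate block 5753 genes, 7 members and 6604 regions passed. Deviations of samples with the same number correlated at -0.0948, 0.591 and 0.598. Whether samples with the same number share a batch was not tested.

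The sign of the log2 difference turned after centring and quantile normalization for CHEK1 (0.15 and 0.15), TIMELESS (0.016 and 0.015), TOPBP1 (0.25 and 0.25) and ETAA1 (0.16 and 0.13). It turned for ETAA1 with the width covariate (0.020), and for TOPBP1 at 500 bp (0.018), with peaks at or above the median (0.035) and without DMSO replicate 2, DMSO replicate 3 or APH replicate 1 (range without 1 sample -0.16 to 0.11). The other 6 members stayed negative under every alternative.

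Body peak numbers, with 91 genes as reported, gave 197 to 307 genes without 1 sample, 1 per 10000 peaks and 19 with at least 3 body peaks. ATRIP turned to -0.034 with the width covariate and to -0.19 with an equal number of peaks. Shared regions, with 0 as reported, gave 1 after centring, 5379 with the width covariate, 0 to 3 without 1 sample (3 without DMSO replicate 2) and 202 over 72825 regions with a peak in at least 3 samples and missing peaks at the lowest value. Regions turned in ATRIP at 19.0 kb (-0.18 with the width covariate, -0.056 to 0.20 without 1 sample), CLSPN at 42.8 kb (-0.15, and -0.10 to 0.27), RAD17 at 45.8 kb (-0.022 to 0.12 without 1 sample, negative without DMSO replicate 1) and WEE1 at 1.80 kb (0.0056 after quantile normalization). The difference of the start to body ratio of TOPBP1 ranged from -1.08 to 0.044 without 1 sample, positive without DMSO replicate 2 or APH replicate 1. Unknown depth limits every value as deposited, and 3 samples a group limit the permutation tests.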

Other observations

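A region just outside the limit of ATRIP had peaks in APH samples alone. It lay at chr3:48445434-48445650, 1196 bp before the ATRIP start and 196 bp beyond the 1 kb allowed, and was found after the values were seen. Its values were 63.9, 61.1 and 66.4 in the 3 APH samples (63.8 ± 2.64, SD), and no DMSO sample had a peak there. In the whole genome 1136 regions had a peak in 3 APH and 0 DMSO samples, with a median value of 25.8, and 94.5% of them were weaker than this region. The reverse pattern, 3 DMSO and 0 APH samples, was found in 189 regions. The APH lists also held more peaks on average, 78146 against 69190, with overlap between the groups.

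The start peaks of WEE1 were 1179, 1108 and 1146 bp wide in DMSO and 951, 1032 and 1093 bp wide in APH, without overlap. They were the only such case of the 10 members, and 7.52% of all genes tested had narrower start peaks without overlap. The width of RAD17 was 934 ± 25.1 bp in DMSO and 953 ± 32.6 bp in APH (SD, n = 3), with overlap.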
